A study of Mus musculus with 2 samples.

Results

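The genes described here encode the epidermal growth factor (EGF) receptor family, its ligands and a cytoplasmic inhibitor of the receptor, measured in the epidermis of mouse pups that lack the vitamin D receptor (VDR) and the calcium-sensing receptor (CaSR) in keratinocytes. The list holds 10 genes, which are the receptor genes Egfr, Erbb2 and Erbb3, the ligand genes Areg, Hbegf, Ereg, Tgfa, Btc and Epgn, and the inhibitor gene Errfi1. They were found by gene symbol among 25697 probes that stand for 17871 genes. The symbols on the array gave 6 of them on 10 probes. Hbegf, listed under its older symbol Dtr, and Errfi1, listed under a clone name, were added through their gene identifier and accession, which gave 8 genes on 12 probes. Signals of Erbb2 and Erbb3 were not analysed here.

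The DKO group was VDR fl/fl CaSR fl/fl with Cre recombinase under the keratin 14 promoter, and the CON group was made of littermates with the same floxed alleles and no Cre. All mice were C57BL6 pups at postnatal day 5, and back-skin epidermis was freed from dermis with dispase. Each group is 1 Illumina expression array of RNA combined from 3 mice, so no test between groups could be run and every difference below lacks a replicate check. The keratin 14 promoter is active in basal keratinocytes and in the outer root sheath of the follicle, whereas melanocytes, T cells and Langerhans cells are not its targets. Which cells of the sheet had lost both genes, descendants of basal cells included, was not measured. Since a Cre-only group was not among the arrays, effects of Cre itself and of the deletions cannot be told apart.

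EGF receptor family members are cell-surface tyrosine kinases that pair when a ligand binds. Their ligands are made as membrane-anchored precursors and are cut free by metalloproteases such as ADAM17, and the bound receptor signals through the Ras and mitogen-activated protein kinases and through phosphoinositide 3-kinase. In skin the receptor is most abundant in basal keratinocytes and the outer root sheath, where it promotes proliferation, holds back terminal differentiation and is needed for straight hair. Extracellular calcium and vitamin D both promote keratinocyte differentiation, and the study's title concerns how their receptors act together in it.

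A probe was taken as detected where its detection p-value lay below 0.01, a comparison with the negative controls of its own array that says nothing about the groups. By that measure 40.6% of probes were detected in DKO and 41.9% in CON. At the 3 Vdr probes the normalized log2 signal was 10.06 in DKO and 10.17 in CON, 9.43 in DKO and 9.67 in CON, and 5.87 in DKO and 6.68 in CON, with differences of -0.12, -0.24 and -0.82, and the only Casr probe was detected on neither array. The files do not say whether any of these probes falls in a deleted exon, so they do not check the labels. The keratinocyte gene Krt14 read 14.28 on both arrays, while 0 of 4 endothelial and 0 of 4 skeletal muscle markers were detected, and 5 of 7 dermal fibroblast markers were not detected. The pools differed in sex-linked transcripts, and Ddx3y, a gene of the Y chromosome, read 10.31 in DKO and 6.89 in CON at its brightest probe. Of the 10 members, 0 lie on the X or Y chromosome, which does not exclude an effect of sex on them. With 1 pool per group, effects of sex and of genotype cannot be told apart for any gene below.

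Of the 12 member probes, 9 were detected on both arrays and 3 on neither. The detected genes were 6, namely Egfr, Errfi1, Btc, Epgn, Areg and Hbegf. For a gene with several probes the main probe is the one with the highest mean log2 signal. By that probe 0 of the 6 detected members were at least 2-fold apart between DKO and CON, where 2.44% of 8472 detected genes were. At that background share a count of 0 among 6 genes says little about the members. A smaller yardstick is the scatter between probes of the same gene, which had a pooled SD of 0.30 on the log2 scale over 2047 genes. Egfr and Epgn, 2 of the 6 members, lay further from 0 than that SD, as did 40.1% of all detected genes. Egfr fell inside it when its probes were averaged (-0.01). Epgn read 0.28 without background correction and in the authors' deposited table, and 0.22 under median scaling. The SD was computed with the main processing only, and values that carry background shrink ratios, so these readings are not on its scale. Under median scaling the median gene stood at -0.13, and Epgn lay 0.35 above it. The central 95% of all detected genes lay between -0.84 and 0.80, and every detected member probe lay inside that range.

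**Figure D1:**
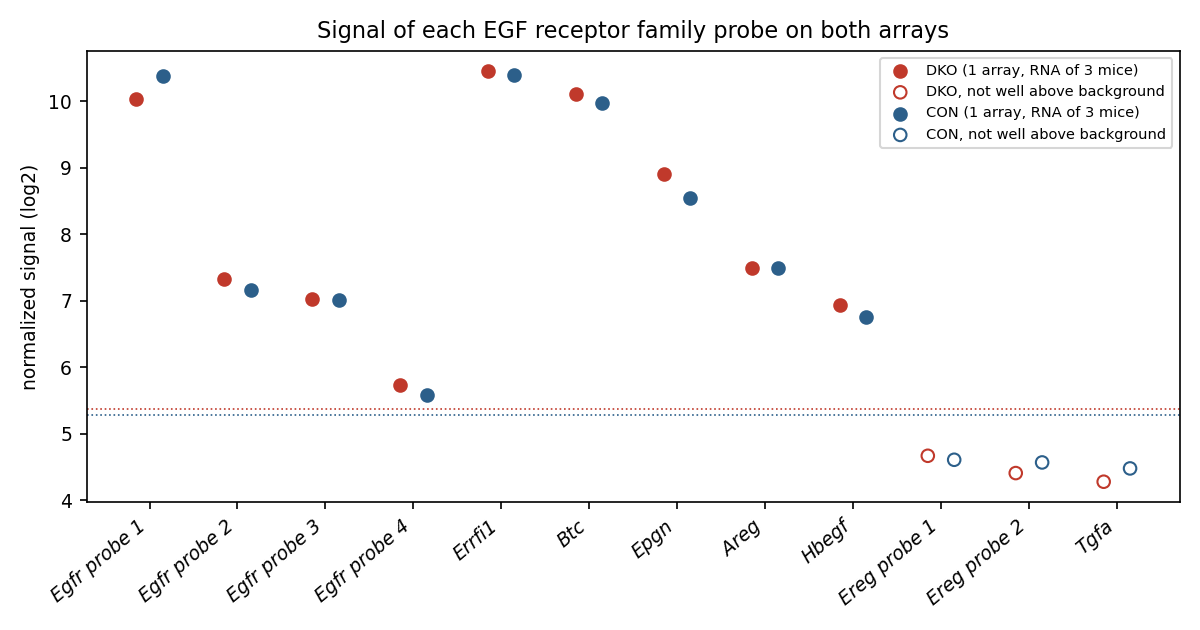
Normalized signal (log2, vertical axis) at each of the 12 member probes, with DKO in red to the left of CON in blue. Each point is 1 array of RNA from 3 mice, open points were not well above background, and dotted lines mark the lowest detected signal on each array (5.38 in DKO and 5.28 in CON). Both points of a probe lie close together, and levels of different probes cannot be set against each other.

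The EGF receptor itself was read by 4 probes, and they did not move together. The brightest Egfr probe had a raw signal of 1087.7 in DKO and 1528.5 in CON. After normalization it read 10.03 in DKO and 10.38 in CON, a difference of -0.36 (log2), which is 0.782 times the CON signal. Of the detected genes, 18% had a difference as low or lower. It is a little larger than the scatter between probes of a gene.

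The other 3 Egfr probes were not lower in DKO after normalization. Raw signals were 262.4 in DKO and 263.6 in CON at the second probe, 233.5 in DKO and 248.3 in CON at the third, and 161.5 in DKO and 161.6 in CON at the dimmest. Normalized, the second read 7.33 in DKO and 7.16 in CON, the third 7.02 in DKO and 7.01 in CON, and the dimmest 5.73 in DKO and 5.58 in CON. Their differences were 0.16, 0.01 and 0.15, with a mean of 0.11. Scaled to equal medians they were 0.06, -0.09 and 0.09. The dimmest of them lay near the lowest detected raw signal, which was 151 on DKO and 152.1 on CON.

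Averaged over all 4 probes, Egfr differed by -0.01, so the lower reading rests on its brightest probe alone. The range over the 4 probes was 0.52. Among the 82 genes with 4 or more probes detected on both arrays the median range was 0.45, and 42.7% of them had a range at least as large as that of Egfr, so disagreement of this size is common on these arrays. Mouse Egfr is known to give rise to a full-length receptor and to a truncated, secreted form from a shorter transcript. The array lists 2 of the probes under each of 2 Egfr transcript records. Under the record of the brightest probe the differences were -0.36 and 0.15, and under the other record they were 0.01 and 0.16. The probe at 0.15 is the dimmest of the 4, near the lowest detected signal. Whether the transcript forms differ between the groups was not tested. Which form each probe reads is not given in the files.

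Errfi1 encodes a feedback inhibitor, induced by receptor signalling, that binds the kinase domain of the receptor and blocks its activation. Its probe had a raw signal of 1424.1 in DKO and 1529.6 in CON, and read 10.45 in DKO and 10.39 in CON after normalization. The difference was 0.06, and 85.5% of detected genes lay at least as far from 0. Scaled to equal medians the difference was -0.05, where the median gene stood at -0.13.

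**Figure D2:**
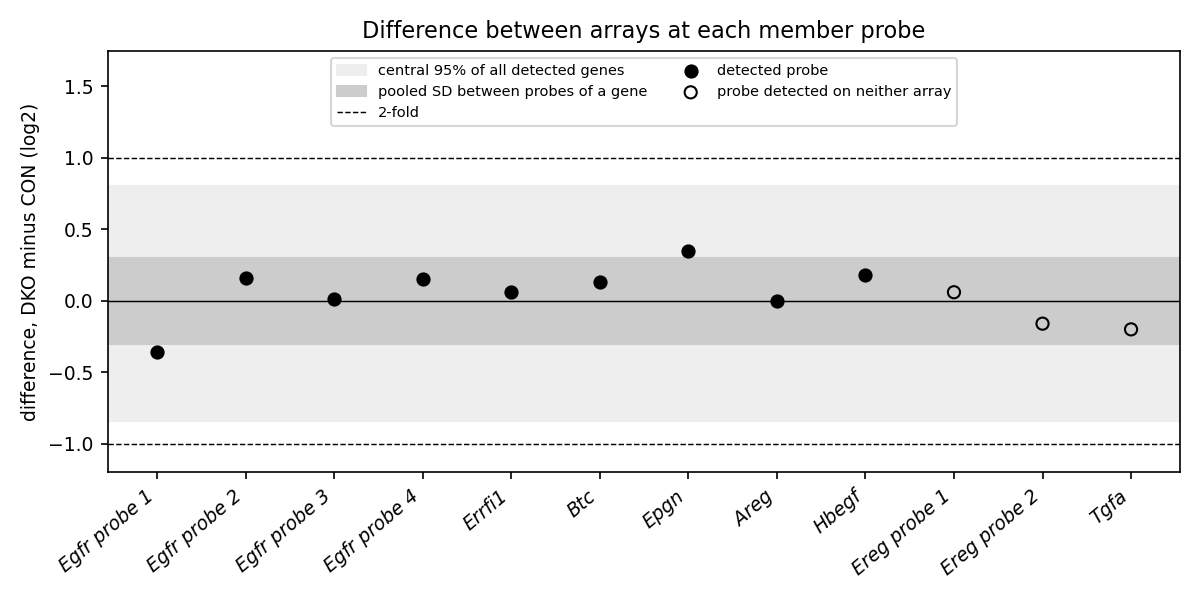
Difference DKO minus CON (log2, vertical axis) at each member probe, with filled points for detected probes and open points for probes detected on neither array. The dark band is the pooled SD of 0.30 between probes of the same gene, the light band spans -0.84 to 0.80, the central 95% of detected genes, and dashed lines mark 2-fold. The brightest Egfr probe (-0.36) and Epgn (0.35) are the detected probes outside the dark band.

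Among the ligands, 4 of 6 were detected, and all 4 lay within 1.27-fold between the arrays. Epgn, which encodes epigen, a low-affinity ligand of the EGF receptor, had a raw signal of 555.5 in DKO and 510.4 in CON. Its normalized signal was 8.90 in DKO and 8.55 in CON, a difference of 0.35, or 1.27-fold. Of the detected genes, 14.9% had a difference at least as high. Epgn was the ligand that differed most, and it has 1 probe, so no second reading of it exists.

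Hbegf encodes heparin-binding EGF-like growth factor, a ligand known for its part in keratinocyte migration during wound closure. It had a raw signal of 227.4 in DKO and 226 in CON. Its normalized signal was 6.94 in DKO and 6.76 in CON, a difference of 0.18, or 1.13-fold. Btc encodes betacellulin, which binds both EGFR and ERBB4. It had a raw signal of 1145.5 in DKO and 1183.9 in CON, and its normalized signal was 10.11 in DKO and 9.97 in CON, a difference of 0.13. The Btc raw signal was thus lower in DKO while the normalized signal was higher. Areg encodes amphiregulin, an autocrine growth factor of keratinocytes, and had a raw signal of 280.4 in DKO and 302.5 in CON. Its normalized signal was 7.50 in DKO and 7.49 in CON, and its difference rounded to 0.00.

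Raw signals ran lower on the DKO array in general, with a median log2 difference of -0.11 over 9980 probes detected on both arrays and of -0.18 over probes as bright as Btc and Errfi1 (raw 1000 to 2000). Quantile normalization removes that shift. Scaling to equal medians over all probes leaves the median detected gene at -0.13, against -0.02 after quantile normalization. Under that scaling Areg differed by -0.11, Btc by 0.01, Hbegf by 0.09, Epgn by 0.22 and the brightest Egfr probe by -0.48. Relative to the median gene, the members moved little across 5 ways of processing. Epgn stood between 0.29 and 0.37 above the median gene, Hbegf between 0.10 and 0.22, Btc between 0.14 and 0.16, Errfi1 between 0.07 and 0.08, and Areg between 0.02 and 0.03. The brightest Egfr probe stood between -0.35 and -0.30.

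**Figure D3:**
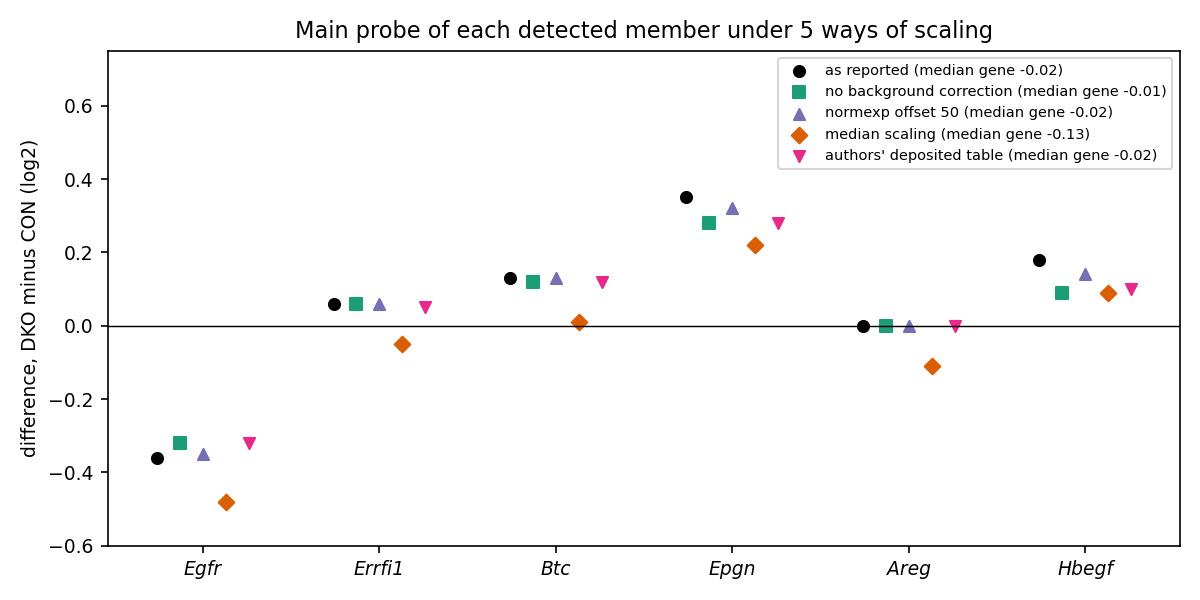
Difference DKO minus CON (log2, vertical axis) of the main probe of each detected member under 5 ways of processing, with the median of all detected genes given in the legend for each. Egfr lies below 0 and Epgn above 0 under all 5, while Areg and Errfi1 lie near 0 and turn negative under median scaling (-0.11 and -0.05).

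In the authors' deposited table, whose normalized values still carry background, the brightest Egfr probe read 1428.4 in DKO and 1778.6 in CON. Epgn read 750.5 in DKO and 616.9 in CON in the authors' deposited table, 1.22-fold, and Areg read 360.9 in DKO and 360 in CON. These are the same 2 arrays, so they add no replicate.

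The remaining 2 ligands were not well above background in either group, and no fold is given for them. Tgfa encodes transforming growth factor alpha, the ligand whose loss gives mice a wavy coat. Its probe had a raw signal of 114.8 in DKO, with a detection p-value of 0.955, and of 128.2 in CON, with a detection p-value of 0.431. Ereg encodes epiregulin, and its 2 probes had raw signals of 133.3 and 123.9 in DKO, against 133 and 131.8 in CON. The detection p-values of Ereg ran from 0.150 to 0.624. A low array signal does not show that a transcript was absent, since a probe can also bind poorly.

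Of the 6 ligand genes, 4 share a position that was not used to choose them, while Hbegf and Tgfa lie on other chromosomes. In the RefSeq gene table (assembly GRCm38.p6) Epgn, Ereg, Areg and Btc follow one another on chromosome 5, with 0 other protein-coding genes between the first and the last of these 4. Within this cluster the differences were 0.35 for Epgn, 0.00 for Areg and 0.13 for Btc, and Ereg was not detected. Areg and Btc lay within the scatter between probes, and Epgn lay near its edge, with 0.22 to 0.35 across 5 ways of processing. The nearest protein-coding gene beyond Btc, Parm1, which encodes a mucin-like membrane protein, differed by -0.19.

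VDR acts by binding DNA, so the RefSeq promoter table (GRCm38.p6) was read for the 250 bases before each annotated start. Windows were found for 7 of the 10 members. The sequences below are those of Egfr, the member whose main probe was lowest in DKO, of Epgn, the member that was highest, and of Areg, the ligand with a difference of 0.00. They run 5′ to 3′ on the strand of the gene, and capitals mark matches to the motifs named after them.
Egfr, GRCm38.p6 chr11:16751953-16752202, plus strand: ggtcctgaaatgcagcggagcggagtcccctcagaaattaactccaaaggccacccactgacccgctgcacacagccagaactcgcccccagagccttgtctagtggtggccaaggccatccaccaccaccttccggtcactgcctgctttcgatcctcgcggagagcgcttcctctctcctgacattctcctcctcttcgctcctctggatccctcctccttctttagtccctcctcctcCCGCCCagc
Epgn, GRCm38.p6 chr5:91027267-91027516, plus strand: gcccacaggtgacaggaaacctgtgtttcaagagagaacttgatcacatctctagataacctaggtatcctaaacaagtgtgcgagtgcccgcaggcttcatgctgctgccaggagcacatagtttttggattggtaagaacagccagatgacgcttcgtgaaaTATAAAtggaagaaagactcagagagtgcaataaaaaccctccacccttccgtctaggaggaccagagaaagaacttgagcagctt
Areg, GRCm38.p6 chr5:91139349-91139598, plus strand: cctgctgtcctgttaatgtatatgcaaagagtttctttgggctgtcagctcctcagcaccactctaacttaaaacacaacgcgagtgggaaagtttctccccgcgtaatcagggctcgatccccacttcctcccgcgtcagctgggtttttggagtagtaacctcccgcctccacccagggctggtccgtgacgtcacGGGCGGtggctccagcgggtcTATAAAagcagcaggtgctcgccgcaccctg

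These 3 windows differ in kind. The Egfr window is 60.8% G or C and holds 1 GC box (GGGCGG, either strand), beginning 9 bases before the annotated start, and no TATAAA. The Epgn window is 46.8% G or C and holds TATAAA starting 86 bases before the start. The Areg window is 57.2% G or C and holds both, with GGGCGG starting 52 bases and TATAAA 31 bases before the start. Among 32851 windows of the same length, 32.7% hold GGGCGG on either strand and 7.59% hold TATAAA on the strand of the gene.

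VDR pairs with the retinoid X receptor on repeats of a hexamer close to AGGTCA. That hexamer was found on neither strand in the windows of Egfr, Epgn, Areg, Btc, Tgfa, Erbb2 and Errfi1, while 14.0% of all windows hold it. A direct repeat of AGGTCA with a gap of 3 bases, searched on both strands, was in none of them and in 0.00609% of all windows, and the AP-1 motif TGAGTCA, which 4.46% of all windows hold on either strand, was in none of the members' windows. A missing match says only that these letters are not in these 250 bases. Sites that depart from these letters, or lie elsewhere, were not searched.

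The other genes of the pathway were taken from 5 lists, 75 genes in all. The lists were chosen for the roles of their genes, with earlier results of these data known. Of these, 69 were on the array and 48 were detected. By the main probe, 0 of the 48 were at least 2-fold higher, beside 1.05% of all detected genes. Likewise 0 were at least 2-fold lower, beside 1.39% of all detected genes. By any amount 18 of the 48 (37.5%) were higher in DKO, where 47.1% of all detected genes were. Their median difference was -0.16, beside -0.02 for all detected genes. Of the 48 genes, 23 lay beyond the probe SD, a share of 47.9% beside 40.1% of all detected genes.

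Other members of the ErbB system were mostly dim. Egf, Nrg1 and Nrg3 were detected on neither array. Nrg4, which encodes a neuregulin that binds ERBB4, had a raw signal of 147.7 in DKO, not well above background, and 171.1 in CON, and was at least 1.36-fold lower in DKO with this processing. Its difference was -0.57 as measured and shrank to -0.23 in the authors' deposited table and -0.17 without background correction, both smaller than that bound. Erbb4 and Nrg2 were not analysed here.

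Genes for release of the ligands were detected in 6 of 8 cases, with 5 higher and 1 lower in DKO and a median of 0.21, where Rhbdf2, counted as higher, differed by 0.00. The median was 0.09 under median scaling and 0.04 with a detection p under 0.05 or with no filter on dim probes. Rhbdf1, an inactive rhomboid protein that assists maturation of ADAM17, read 10.80 in DKO and 10.11 in CON, a difference of 0.69. Timp3, a secreted inhibitor of metalloproteases that include ADAM17, read 9.77 in DKO and 10.46 in CON, a difference of -0.68, and its second probe differed by -0.74. Timp3 is therefore a gene whose probes concur. The metalloprotease genes Adam9 and Adam15 differed by 0.53 and 0.39. Adam9 was dim, with a raw signal of 184.0 in DKO and 167.6 in CON. These lie near the lowest detected raw signal, which was 151 on DKO and 152.1 on CON. Adam17 itself, which cuts amphiregulin and transforming growth factor alpha precursors, read 9.06 in DKO and 9.03 in CON. Adam10, which cuts betacellulin, was detected on neither array.

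Adaptors and kinases downstream of the receptor were detected in 18 of 28 cases, with 7 higher and 11 lower and a median of -0.10, which was -0.21 under median scaling and 0 with no filter on dim probes. Pik3cb and Pik3r1, a catalytic and a regulatory subunit of phosphoinositide 3-kinase, both differed by -0.71, and the second Pik3r1 probe differed by -0.67. Nck1, an adaptor protein that links receptors to the actin cytoskeleton, differed by 0.65.

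Brakes on receptor signalling were detected in 12 of 18 cases, with 4 higher and 8 lower and a median of -0.16. Rnf41, counted as higher, differed by 0.09 at its main probe, but its other probes differed by -1.40 and -0.28. The main probe read only 5.91 in DKO and 5.82 in CON, and the probe at -1.40 was dimmer on average. In DKO that probe therefore lay below the lowest detected signal of 5.38. Its difference passes 2-fold as measured, but no bound was computed for it. Dusp4, a phosphatase of mitogen-activated protein kinases, differed by -0.50. It was dim, with a raw signal of 163.0 in DKO and 192.8 in CON, near the lowest detected raw signal (151 and 152.1). Socs5, which promotes loss of the receptor, differed by -0.47, and the tyrosine phosphatase gene Ptpn1 by -0.38. Sh3kbp1, an adaptor in receptor endocytosis, differed by 0.37, and its other probes by 0.42 and 0.71. Lrig1, a membrane protein that promotes receptor breakdown and marks stem cells of the upper follicle, read 11.04 in DKO and 11.25 in CON.

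Early response genes, which receptor signalling induces in many cell types, were detected in 11 of 15 cases, with 2 higher and 9 lower and a median of -0.27. With dim values set to their bound that median was -0.20. Etv5, counted as lower, was detected on CON only and differed by -0.32 as measured, while its bound left no difference. Ccnd1, the cyclin that carries growth factor signals into the cell cycle, read 11.54 in DKO and 12.45 in CON, a difference of -0.91, and its other probes differed by -0.74 and -0.69. Etv4, an ETS transcription factor gene, read 6.65 in DKO and 7.55 in CON, a difference of -0.90 on 1 probe. Phlda1 differed by -0.68, and Fos, an AP-1 subunit gene, by 0.40. Egr1 read 11.79 in DKO and 12.07 in CON.

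The hair follicle is a place where receptor, ligands and cyclin D1 are made, and its markers were lower on the same DKO array. Of 16 markers listed, 13 were on the array and 11 were detected. All 11 detected markers were lower in DKO, 8 of them at least 2-fold, with a median of -1.29, and Hoxc13 fell just short of 2-fold. Their summed normalized signal was 11060 in DKO and 31080 in CON, and Krt25 and Lef1 were detected on neither array. Basal keratinocyte markers had a median of -0.03 over 6 of 6 detected genes and a summed signal of 47630 in DKO and 48040 in CON. Suprabasal keratinocyte markers had a median of 0.01 over 5 detected genes, with 3 higher and 2 lower and differences from -0.44 to 0.64. Their summed signal was 59700 in DKO and 53470 in CON. Melanocyte markers were lower at 4 of 4 detected genes by the main probe, with a median of -0.38. Their summed signal was 2435 in DKO and 3212 in CON. Probes did not concur at Pmel (-0.61, and 0.26 at its second probe) or Tyrp1 (-0.27, and -0.10 and 0.13 at its others). For scale, 4455 of all 8472 detected genes were lower by any amount. T cell markers had a median of -0.44 over 5 of 5 detected genes, with 3 lower and 2 higher and a summed signal of 1603 in DKO and 1823 in CON. Langerhans cell and antigen presentation markers were higher at 4 of 4 detected genes by the main probe, with a median of 0.31 and a summed signal of 7836 in DKO and 6938 in CON. Of all detected genes, 47.1% were higher by any amount. At H2-Ab1 the main probe differed by 0.12 and its 3 other probes by -0.04 to 0.38. In a bulk sample fewer cells of a type and less RNA per cell cannot be told apart. The part of these cell types in the readings of Egfr, Ccnd1 and Etv4 was not tested.

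**Figure D4:**
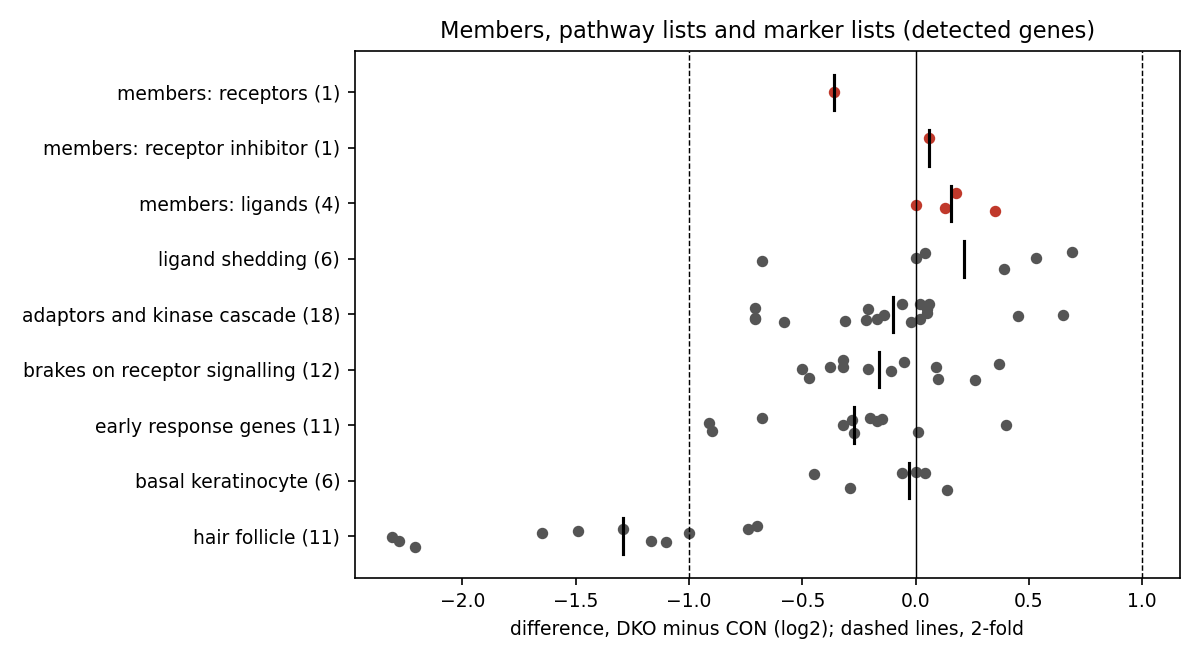
Difference DKO minus CON (log2, horizontal axis) of each detected gene by its main probe, for members (red) and for pathway and marker lists (grey), with the number of detected genes in parentheses. Black bars are list medians and dashed lines mark 2-fold. Members and pathway genes lie inside the dashed lines, and 8 of 11 hair follicle markers lie beyond -1, with Hoxc13 just short of the line.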

How the data were processed

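The authors deposited 2 kinds of probe values: raw signal intensity with background left in, beside a detection p-value, and normalized intensity on a linear scale. The submitters' processing notes name GenomeStudio 2011.1 and, as used here, no normalization method. Per the file headers, a line over the column names marks which array is CON and which is DKO. The series' own value list differs from the normalized table at 0 probes.

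Raw intensity was corrected by neqc (limma 3.58.1, R 4.3.3, offset 16), quantile normalized and put on the log2 scale, and these steps were tested on simulated data. Probes were named through a RefSeq gene table by gene identifier (16938), accession (7420), current symbol (465) or older symbol (553), and 321 kept the array's name. A gene entered when its main probe had a detection p under 0.01 on at least 1 array. Bounds set a dim signal to the higher of its own value and the lowest detected signal.

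With 1 array per group there is no test, which limits the precision of every difference. The size rule was 2-fold. All members are named, and from each list up to 4 genes that differ most, except that some are not reported here. Adam17, Lrig1, Egr1 and Parm1 were named beyond that rule for their roles or position, after values were seen. Rhbdf2, Rnf41 and Etv5 were named beyond it to show how they were counted. With 2 arrays no gene can be named for a similar pattern. Members and lists were chosen with earlier results of these data known.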

Additional observations from a re-analysis of the deposited data

How the results depend on the processing

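Results were recomputed in 8 other ways: without background correction, with normexp at an offset of 50, with median scaling, from the authors' deposited table, with detection p under 0.05, with detection on both arrays, with no filter on dim probes, and with the mean over detected probes. Another 2, members by the symbol on the array alone and dim values at their bound, were added after seeing the data. The number of members at least 2-fold apart was 0 under all 10. The ligand median (0.16 as reported) ranged from 0.05 to 0.16, and that of all detected member probes (0.13) from 0.01 to 0.13. The receptor value, which is Egfr alone, was -0.01 when its 4 probes were averaged, against -0.36 by its brightest probe, and -0.48 under median scaling. The median of the 5 pathway lists together (-0.16) ranged from -0.28 to -0.08. Over all genes, the counts at least 2-fold higher and lower were 89 and 118 as reported. They were 23 and 27 without background correction, 43 and 58 with offset 50, 24 and 28 in the authors' deposited table, and 57 and 77 with detection on both arrays. Values that carry background, or a larger offset, shrink ratios by construction, and fewer genes enter when both arrays must detect them. Of 177 alternative values, 165 stayed close to the reported one (within the probe SD, or within 1.5 times for counts), and 12 moved further. That tally says little about robustness, since many of these values could not move. A gene with 1 probe detected on both arrays keeps its value under each change of filter and under averaging of probes. The probe SD is also larger than most of the member differences. Errfi1 turned sign under median scaling (-0.05 against 0.06), which lowers the median gene by 0.11. Epgn (0.35) ranged from 0.22 to 0.35, Nrg4 (-0.57) was -0.17 without background correction and -0.23 in the authors' deposited table, and the ligand shedding median (0.21) ranged from 0.04 to 0.21. The early response median (-0.27) ranged from -0.34 to -0.15. No paired analysis was possible because each group has 1 array, and for the same reason no array could be left out. Signals of Tgfa and Ereg lay at background, which limits what can be read of them.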
